A study of Mus musculus with 14 samples.

Results

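Genes of lipoprotein metabolism that neighbour or serve each other were followed through the cells of the mouse spinal cord: Apoe, Apoc1, Apoc2, Apoc4 and Lpl. These are 5 of the 55335 genes in the tables, picked by symbol with earlier results of these data known. Apolipoprotein E is the main lipid carrier protein of the central nervous system, is made there by astrocytes and by activated microglia and macrophages, and is taken up through lipoprotein receptors. The C apolipoproteins are small proteins that move between lipoprotein particles: apolipoprotein C-II is the activator that lipoprotein lipase needs, and apolipoprotein C-I can inhibit that enzyme and particle uptake. Lpl encodes lipoprotein lipase, the secreted enzyme that releases fatty acids from triglycerides in such particles, and both Apoe and Lpl are known as markers of microglia in disease.

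The libraries were 10x Genomics 3' single-cell libraries of dissociated whole spinal cord from mice labelled P115-120 days. SOD1G93A mice (3 libraries, strain B6SJL-Tg(SOD1*G93A)1Gur/J) carry a human SOD1 transgene with a mutation that causes amyotrophic lateral sclerosis (ALS), a disease in which motor neurons die. SOD1G93A/Clec7a-KO mice (4 libraries) carry the same transgene and lack Clec7a, a receptor of myeloid cells also called dectin-1. The groups without the transgene were nTg (3 libraries) and Clec7a-KO (4 libraries, strain B6.129S6-Clec7atm1Gdb/J). The series set out to ask what Clec7a does in microglia in this ALS model. The background strains of the nTg and SOD1G93A/Clec7a-KO mice, their sex and whether a library came from 1 animal are not given in the sources used here, so p-values measure the spread between libraries, and strain cannot be told apart from genotype. The tissue was digested at 37 °C and freed of myelin, which limits the recovery of neurons and oligodendrocytes.

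Of 108892 cell barcodes, 90018 were kept as cells, and the libraries held 28819852 to 141204910 UMIs (unique molecular identifiers, each counting 1 captured RNA molecule). Clustering gave 25 clusters, of which all but 2 were named from marker genes. The microglia-like class held 51143 cells (967 to 7572 a library), and 8 further classes were large enough to test: endothelial-like (11589 cells), ependymal-like (7709), astrocyte-like (5855), oligodendrocyte-precursor-like (3926), mural-like (1724), neuron-like (1213), T- and NK-cell-like (734) and border-associated-macrophage-like (573). Each class is called below by its plain name. Clec7a gave 57449 to 101134 UMIs in the SOD1G93A libraries, 755 to 1767 in nTg and 33 to 240 in the 8 libraries without the gene, and the gene counted as Sod1 was at 2137 to 3421 CPM (UMIs scaled to a common library total) with the transgene against 109.8 to 229.8 without it. In 4 libraries, nTg 1 and 3, Clec7a-KO 3 and SOD1G93A/Clec7a-KO 4, Xist was above the Y-linked gene Ddx3y, and 5 clusters came almost wholly from them. Libraries 13, 15 and 16 (SOD1G93A/Clec7a-KO replicates 3 and 4 and Clec7a-KO replicate 4) also stood apart, giving 70.9% of the cells of microglia cluster 6 and 93.3% of those of endothelial cluster 16. 1017 barcode sequences of kept cells occurred in more than 1 library.

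In the mouse genome (GRCm38) the apolipoprotein genes lie side by side on the minus strand of chromosome 7. Apoc2 runs from 19671579 to 19677941, Apoc4 from 19678083 to 19681479, Apoc1 from 19689481 to 19692660 and Apoe from 19696109 to 19699188, a stretch of 27610 bases. Only 141 bases separate Apoc2 from Apoc4, whereas 8001 bases lie between Apoc4 and Apoc1 and 3448 between Apoc1 and Apoe. Lpl stands apart on chromosome 8, from 68880491 to 68907448 on the plus strand. An annotated transcript unit, Gm44805, runs across Apoc2 and Apoc4 on the same strand and covers 79.5% of the exonic bases of Apoc2 and 4.69% of those of Apoc4. It had 0 UMIs in every library, and how reads shared by Apoc2 and Gm44805 were counted is not given in the sources used here, so the counts of Apoc2 are uncertain.

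Because Apoe and Apoc4 changed together in the cells described below, the 250 bases before each start are shown, from RefSeq and the GRCm38.p6 build (Apoe chr7:19699189-19699438 and Apoc4 chr7:19681461-19681710, both minus strand). Capitals mark the longest run of bases that both windows share on the same strand.
Apoe: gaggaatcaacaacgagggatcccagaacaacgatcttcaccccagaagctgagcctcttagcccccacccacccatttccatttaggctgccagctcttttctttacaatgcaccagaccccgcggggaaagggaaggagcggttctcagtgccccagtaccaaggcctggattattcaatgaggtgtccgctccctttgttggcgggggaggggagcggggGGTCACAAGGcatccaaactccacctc
Apoc4: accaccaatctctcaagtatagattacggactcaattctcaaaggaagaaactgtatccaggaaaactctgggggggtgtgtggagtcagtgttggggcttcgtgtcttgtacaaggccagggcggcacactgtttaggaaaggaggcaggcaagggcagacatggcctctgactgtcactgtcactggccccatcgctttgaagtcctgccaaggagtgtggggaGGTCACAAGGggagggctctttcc
The shared run of 10 bases starts 27 bases before the Apoe start and 24 bases before the Apoc4 start, and is absent from the window of Apoc2. These are RefSeq starts. That of Apoc4 lies inside the gene span given above, which reaches 19681479, so its window from 19681461 overlaps that span. It occurs, on either strand, in 42 of 32851 RefSeq promoter windows of 300 bases (0.128%), and was picked after looking at these sequences, so it is a description only. 5 motifs were searched on both strands in the windows of Apoe, Apoc2 and Apoc4: the LXR DR4 element (in 0.0822% of all windows), CACGTG (7.15%), TGACTCA (5.20%), a PU.1 motif (3.20%) and an NF-kappa B motif (0.155%). None of these exact letters occurred there. No window was at hand for Apoc1 and Lpl.

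Apoe, Apoc1, Apoc4 and Lpl were all higher in the microglia of mice with the SOD1G93A transgene, with and without Clec7a. Levels are UMIs summed over the microglia of a library, as CPM adjusted by the trimmed mean of M values (TMM). Apoe stood at 96147, 72684 and 65455 CPM in SOD1G93A replicates 1 to 3, and at 86006, 109469, 44449 and 36305 CPM in SOD1G93A/Clec7a-KO replicates 1 to 4. In the nTg libraries it was 1968, 1134 and 2408 CPM, and in Clec7a-KO 2168, 2250.5, 1323 and 1070.1 CPM. Every library with the transgene lay above every library without it. The share of all genes that separate in this way is not given here, so this and the like separations below are a description. The SOD1G93A/Clec7a-KO libraries fell into a higher and a lower pair. The higher pair reached from within the SOD1G93A range to above it. The lower pair lay below that range and was libraries 13 and 15, which stood apart in the clustering. Apoe alone took 5.78% to 8.94% of all microglial UMIs in SOD1G93A, 2.83% to 8.96% in SOD1G93A/Clec7a-KO, 0.136% to 0.291% in nTg and 0.111% to 0.269% in Clec7a-KO.

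Apoc1 was at 62.2, 88.0 and 109.8 CPM in SOD1G93A and at 156.1, 84.5, 136.4 and 98.4 CPM in SOD1G93A/Clec7a-KO. It was at 4.67, 1.20 and 7.71 CPM in nTg and at 1.84, 2.82, 4.64 and 2.59 CPM in Clec7a-KO. Here too the groups with and without the transgene did not overlap, and the ranges of the nTg and Clec7a-KO libraries did.

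Apoc4, a less studied member of the cluster, was at 26.0, 35.6 and 38.7 CPM in SOD1G93A and at 92.5, 51.2, 61.8 and 49.6 CPM in SOD1G93A/Clec7a-KO. It was at 0.677, 0.105 and 2.08 CPM in nTg and at 0.643, 0.855, 0.699 and 1.45 CPM in Clec7a-KO. All 4 SOD1G93A/Clec7a-KO libraries were above all 3 SOD1G93A libraries. With 3 against 4 libraries such a separation cannot reach p under 0.05 in a two-sided exact permutation test. The share of all genes that separate in this way is not given here, so this is a description.

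Apoc2 was almost unread: its UMIs in microglia numbered 2, 16 and 18 in SOD1G93A, 12, 4, 38 and 30 in SOD1G93A/Clec7a-KO, 0 in each nTg library and 0, 0, 3 and 0 in Clec7a-KO. It was too low to enter the test. Without the filter on low counts its log2 fold change was 4.00 in SOD1G93A/Clec7a-KO against Clec7a-KO (adjusted p = 0.0083) and 5.71 in SOD1G93A against nTg (adjusted p = 0.10), where all nTg libraries are at 0 and the fitted value depends on the prior count.

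Lpl, the lipase itself, was at 1096, 1102 and 1107 CPM in SOD1G93A, a spread far smaller than that of Apoe in the same libraries. In SOD1G93A/Clec7a-KO it was at 1109, 1154, 662 and 501 CPM, with the same replicates 3 and 4 (libraries 13 and 15) low as for Apoe. The part of their standing apart in these values was not tested. In nTg it was at 74.7, 41.2 and 81.1 CPM and in Clec7a-KO at 73.1, 59.1, 51.2 and 72.0 CPM, again without overlap with the transgenic groups.

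**Figure D1:**
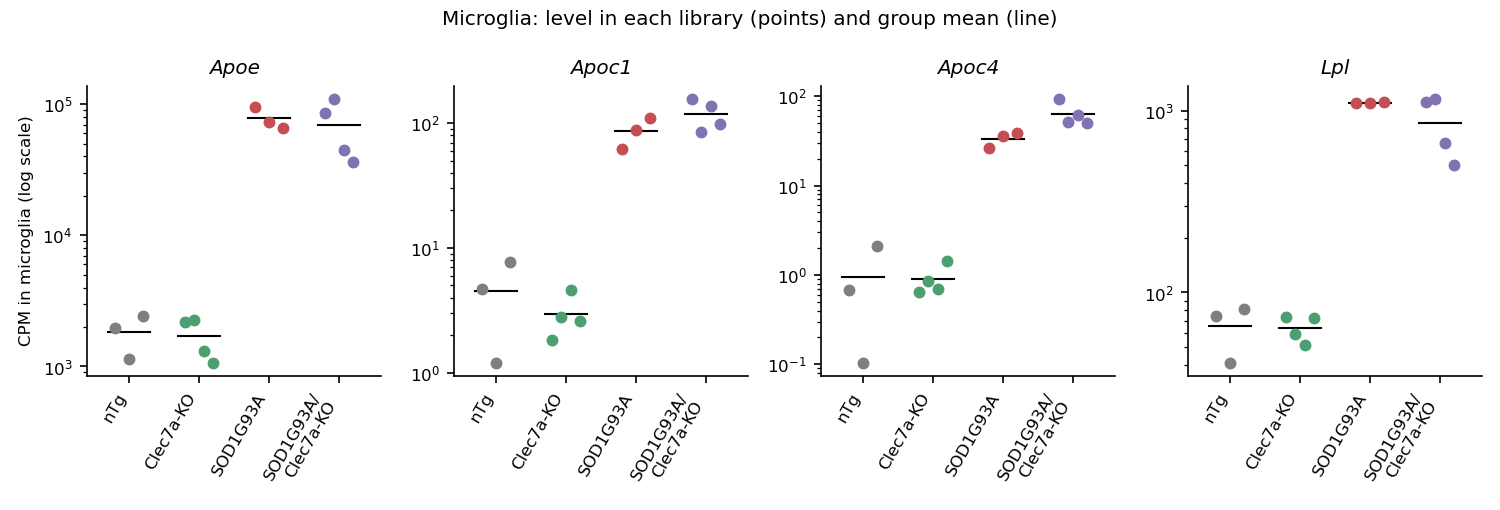
Level of Apoe, Apoc1, Apoc4 and Lpl in microglia, as CPM on a log axis, with a point for each library and a line at the group mean. For each gene the 7 libraries with the transgene lie above the 7 without it, and the share of all genes that do so is not given here. For Apoe and Lpl the SOD1G93A/Clec7a-KO libraries split into a higher and a lower pair.

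Each of these genes was tested in a fit of all genes over the 14 libraries, with p adjusted over 16644 genes. In SOD1G93A against nTg, Apoe rose by a log2 fold change of 5.41 (SE 0.51, adjusted p = 3.8e-06) from a mean of 1837 ± 647 CPM (SD, n = 3) to 78095 ± 16045 CPM (SD, n = 3). Apoc4 rose by 5.30 (SE 0.53, adjusted p = 6.6e-06), Apoc1 by 4.29 (SE 0.50, adjusted p = 2.5e-05) and Lpl by 4.07 (SE 0.34, adjusted p = 1.5e-06). So 4 of the 5 genes were called higher, Apoc2 having no test, where 19.6% of all genes tested were called higher.

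In SOD1G93A/Clec7a-KO against Clec7a-KO the same 4 genes were called higher, beside 25.6% of all genes tested. Apoc4 rose by 6.20 on the log2 scale (SE 0.47, adjusted p = 2.5e-07), Apoc1 by 5.35 (SE 0.46, adjusted p = 7.7e-07), Apoe by 5.34 (SE 0.44, adjusted p = 5.7e-07) and Lpl by 3.75 (SE 0.29, adjusted p = 3.4e-07). The means ± SD of Apoe were 69057 ± 34635 CPM with the transgene (n = 4) and 1703 ± 595 CPM without it (n = 4). Less the level in the T and NK cells of the same library they were 32453 and 640 CPM, and the Lpl mean with the transgene went from 857 to 530.2 CPM. The Apoc1 mean went from 118.9 to 85.1 CPM with the transgene and from 2.97 to -0.643 CPM without it. Without Clec7a-KO replicate 1 the T and NK means of Clec7a-KO fell from 1063 to 127 CPM of Apoe and from 3.61 to 0 CPM of Apoc1. The T and NK level is not a background common to all classes, here and below. In SOD1G93A/Clec7a-KO, 10 microglia genes stood there at a median of 2.43% to 63.7% of their microglial level. In endothelial cells they stood at 1.36% to 4.20%. Both comparisons kept all 4 calls under all 28 settings tried. The log2 fold change of Apoe ran from 4.81 to 6.15 over them in the first comparison and from 4.83 to 5.68 in the second. Without the 4 libraries with Xist above Ddx3y, which leaves 1 nTg library, Apoe, Apoc1, Apoc4 and Lpl differed between SOD1G93A and nTg by 6.15, 6.21, 8.33 and 4.79 on the log2 scale.

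None of them was called with the loss of Clec7a. In SOD1G93A/Clec7a-KO against SOD1G93A, where 0.018% of all genes were called in either direction, the log2 fold change was -0.18 for Apoe (SE 0.40, adjusted p = 0.86), 0.46 for Apoc1 (SE 0.40, adjusted p = 0.63) and -0.36 for Lpl (SE 0.28, adjusted p = 0.58). Without libraries 13, 15 and 16 the values turned to 0.33 for Apoe and 0.040 for Lpl, and neither was called. Apoc4 had a log2 fold change of 0.93 (SE 0.38, unadjusted p = 0.028, adjusted p = 0.44). In Clec7a-KO against nTg, where 0.03% of all genes were called, the values were -0.11 for Apoe (SE 0.40), -0.61 for Apoc1 (SE 0.46), 0.03 for Apoc4 (SE 0.58) and -0.04 for Lpl (SE 0.28), each with an adjusted p of 1, and the sign of each of the 4 changed under at least 1 setting. These comparisons share their SOD1G93A, nTg and other libraries with those above, and the calls missed here do not show that the levels were alike.

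The difference between both effects of Clec7a loss, with and without the transgene, was also tested. It was -0.07 for Apoe (SE 0.56), 1.06 for Apoc1 (SE 0.61), 0.90 for Apoc4 (SE 0.69) and -0.32 for Lpl (SE 0.40), and none was called. Without the Xist libraries Apoc1 turned to -0.46 and Apoc4 to -2.06, without libraries 13, 15 and 16 Lpl turned to 0.14, and Apoe changed sign in 9 of 28 settings. Over all genes edgeR called 0 (0%), with 329 genes at an unadjusted p under 0.05, and DESeq2 called 2.

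**Figure D2:**
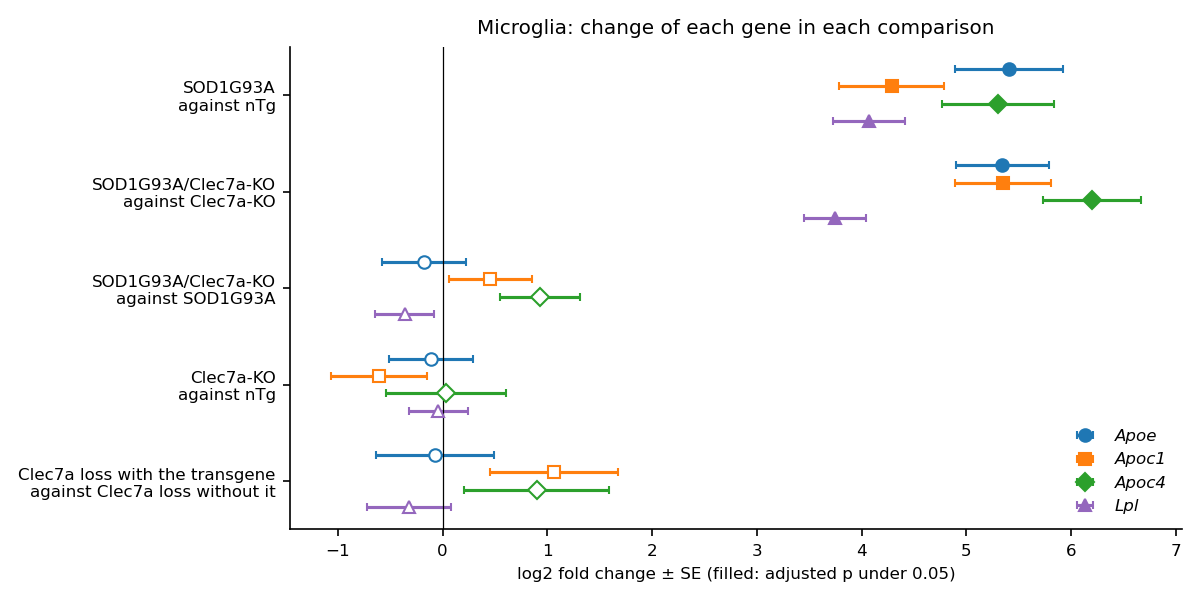
Log2 fold change ± SE of Apoe, Apoc1, Apoc4 and Lpl in microglia in each of the 5 comparisons, filled where the adjusted p was under 0.05. All 4 genes lie between 3.75 and 6.20 in both comparisons of mice with and without the transgene, and between -0.61 and 1.06 in the others.

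Some other measures moved with these genes. Summed levels of 22 genes of the stress response to tissue dissociation ran from 36874 to 57573 CPM in the microglia of the 7 libraries without the transgene and from 23900 to 31929 CPM in the 7 with it. Border-associated macrophage markers (8 of 8 listed) summed to 68.2 to 98.7 CPM without the transgene, with 1 of them at 0 in nTg, and to 133.4 to 199.2 CPM with it. Oligodendrocyte precursor markers (7 of 7 listed) summed to 3.37 to 12.6 CPM without the transgene and to 25.4 to 73.1 CPM with it, and none was at 0. Neuron markers (9 of 9 listed) summed to 14.7 to 34.9 CPM without the transgene and to 4.46 to 10.1 CPM with it. Endothelial markers (11 of 11) summed to 54.3 to 107.8 CPM without it and to 87.3 to 226 CPM with it, with overlap between SOD1G93A/Clec7a-KO and the groups without the transgene and none between SOD1G93A and these. No neuron or endothelial marker was at 0. The sums of the other marker lists overlapped between libraries with and without the transgene. Among them were astrocyte markers (174.8 to 430 CPM without it and 96.8 to 214 CPM with it). Mural markers ran from 14.8 to 25.4 CPM without it and from 6.87 to 15.7 CPM with it. A sum can rest on few of its genes. The part of each in the result was not tested.

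Seen cell by cell, Apoe was read in nearly every microglial cell of mice with the transgene. With each cell thinned to 2000 UMIs, the share of microglia with at least 1 Apoe UMI was 41.1% ± 5.7 (SD, n = 3) in nTg, 39.8% ± 17.2 (n = 4) in Clec7a-KO, 99.9% ± 0.090 (n = 3) in SOD1G93A and 99.5% ± 0.64 (n = 4) in SOD1G93A/Clec7a-KO. Without thinning the shares were 75.5%, 68.0%, 100% and 99.9%. In T and NK cells, which should not make Apoe, the thinned shares were 23.9%, 35.9%, 96.7% and 93.6%, and in both transgenic groups these are close to those of microglia. The Clec7a-KO share in T and NK cells had an SD of 29.3 (n = 4) and was 21.8% without replicate 1, which stood at 78.1%, while the SDs were 3.46 in nTg (n = 2), 0.403 in SOD1G93A (n = 3) and 6.79 in SOD1G93A/Clec7a-KO (n = 4). Library medians of UMIs per cell before thinning ran from 5332 to 21882 in microglia and from 2207 to 7313 in T and NK cells. The amounts lay apart in SOD1G93A, where the median Apoe UMIs per thinned cell ran from 106 to 149 in microglia and from 3 to 5 in T and NK cells. In SOD1G93A/Clec7a-KO these medians ran from 51 to 170 and from 2 to 44.5, and in microglia without the transgene they were 0 or 1.

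Lpl was read in 5.88% ± 1.24 of thinned microglia in nTg (SD, n = 3), 5.38% ± 1.30 in Clec7a-KO (n = 4), 55.8% ± 3.35 in SOD1G93A (n = 3) and 48.3% ± 10.7 in SOD1G93A/Clec7a-KO (n = 4), and unthinned in 16.9%, 14.1%, 83.5% and 76.4%. In T and NK cells the thinned shares of Lpl were 0%, 0.781%, 3.72% and 12.9% in the same order. The libraries behind them ran from 0% to 3.125% in Clec7a-KO, 1.67% to 5.80% in SOD1G93A and 6.82% to 23.7% in SOD1G93A/Clec7a-KO. Apoc1 went from 0.415% and 0.356% without the transgene to 8.63% and 10.3% with it in the same order of groups. Apoc4 went from 0.124% (0.0263% without nTg replicate 3) and 0.150% to 4.15% and 7.11%. In T and NK cells the thinned share of Apoc1 was 0% in both groups without the transgene, 0.556% in SOD1G93A, where 1 library was at 1.67% and the others at 0%, and 2.87% in SOD1G93A/Clec7a-KO, where the highest library was at 7.63% and the mean without it 1.28%. That of Apoc4 was 0% without the transgene, 1.11% in SOD1G93A, where 1 library was at 3.33% and the others at 0%, and 2.77% in SOD1G93A/Clec7a-KO, where the highest was at 7.69% and the mean without it 1.13%. At this thinning most microglia of every group had no Apoc1 or Apoc4 UMI.

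Within a library, Apoc1 and Apoc4 were read more often in microglia with more Apoe, while Lpl did not follow Apoe in this way in the transgenic groups. Among cells above their library's median of Apoe UMIs, the share with Apoc1 was higher than among the others in all 14 libraries, with 11.3% to 14.6% against 2.35% to 5.82% in SOD1G93A and 11.8% to 18.95% against 4.37% to 6.62% in SOD1G93A/Clec7a-KO. For Apoc4 it was 6.22% to 7.68% against 0.686% to 1.45% in SOD1G93A and 9.51% to 17.7% against 1.38% to 3.08% in SOD1G93A/Clec7a-KO, and higher in 12 of 14 libraries overall. For Lpl the share was higher above the median in 3 of 3 nTg and 4 of 4 Clec7a-KO libraries, in 2 of 3 SOD1G93A libraries and in 0 of 4 SOD1G93A/Clec7a-KO libraries, where it was 35.0% to 56.7% above and 38.0% to 66.2% below. Cells share a library here, so these shares are a description.

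The 8 microglia clusters differed in these genes. Over all their cells, Apoe was highest in cluster 2 (82546 CPM) and in cluster 4 (80440 CPM, led by Gpnmb, Spp1, Mmp12 and Lgals3, genes of disease-associated microglia). Cluster 2 was led by Elane, Mpo and Prtn3, genes of granule enzymes known from neutrophil precursors. Its name rests on microglia markers, on average 5.12 on the log2 scale above the lower quartile of the clusters. For border-associated macrophage markers, the next class, this was 1.16. Lpl was highest in cluster 4 (1166 CPM), with 491 CPM in cluster 2, and so were Apoc1 (128.7 CPM) and Apoc4 (74.3 CPM). Clusters 9 (2570 CPM of Apoe) and 18 (1596 CPM), both led by genes of resting microglia such as Crybb1 and by Xist in cluster 18, were the lowest. These values pool groups that differ in Apoe and in their share of each cluster, so their order partly restates which groups a cluster held. Over SOD1G93A cells alone, Apoe was at 88071 CPM in cluster 4, 85627 in cluster 2, 70377 in cluster 6, 60773 in cluster 0, 40106 in cluster 1, 33774 in cluster 5 and 13897 in cluster 9. 1 of the 5 genes was among the variable genes used to cluster, so the order of the clusters is a description.

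Inside cluster 1, led by the resting microglia genes P2ry12 and Tmem119, Apoe still differed between the groups. Per library it was at 52020, 31135 and 28589 CPM in SOD1G93A and at 49531, 65688, 19567 and 16035 CPM in SOD1G93A/Clec7a-KO. In Clec7a-KO it was at 1811, 1396, 87.0 (from 20 cells) and 693 CPM, and in the nTg libraries with enough cells at 631 and 1121 CPM. Lpl over the pooled cells of this cluster was at 35.7 CPM in nTg, 48.1 in Clec7a-KO, 394 in SOD1G93A and 406 in SOD1G93A/Clec7a-KO. In T and NK cells Apoe ran from 5637 to 13040 CPM in SOD1G93A and from 1920 to 87109 CPM in SOD1G93A/Clec7a-KO. Mean Lpl in these cells was 53.0 and 326 CPM. The part of RNA carried over from other cells in the cluster 1 values was not tested. Few control cells fell in the other clusters led by genes of activation or division, and their values, pooled over libraries, varied. In cluster 0, led by Ifnb1, Cxcl10 and Il12b, 56 nTg cells were at 20968 CPM of Apoe and 1425 CPM of Lpl, and 93 Clec7a-KO cells at 20533 and 812 CPM. The SOD1G93A cells of cluster 0 were at 60773 and 979 CPM. In cluster 2, 56 nTg cells were at 30017 and 435 CPM and 140 Clec7a-KO cells at 22250 and 79.7 CPM. In cluster 6, 68 Clec7a-KO cells were at 23628 and 933 CPM. In cluster 5, led by Mki67 and Top2a, 55 Clec7a-KO cells were at 224 and 133.5 CPM. No control group had 50 cells in cluster 4.

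**Figure D3:**
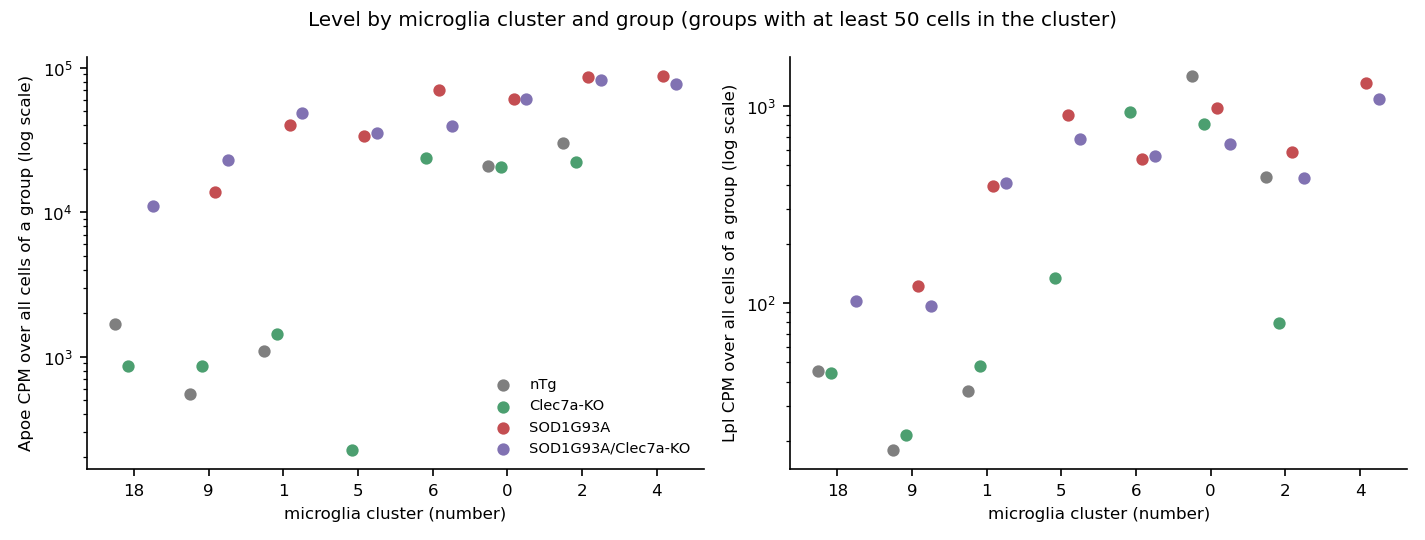
CPM of Apoe (left) and Lpl (right) over all cells of a group in each microglia cluster, on log axes, for groups with at least 50 cells in the cluster. In clusters 9 and 1 the transgenic groups lie above the others for both genes, and in cluster 0 the nTg cells reach 1425 CPM of Lpl against 979 CPM in SOD1G93A.

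Outside microglia, Apoe in mice without the transgene was highest in border-associated macrophages, the macrophages of the meninges and perivascular spaces, and in astrocytes. In nTg the order of means was border-associated macrophages (43586 ± 4955 CPM), astrocytes (17276 ± 1554), oligodendrocyte precursors (2470 ± 521), ependymal cells (1955 ± 398), microglia (1837 ± 647) and endothelial cells (1265 ± 142), all with SD and n = 3. Mural cells (479 ± 192, n = 3), T and NK cells (178 ± 118, n = 2) and neurons (140.0 ± 35.3, n = 3) came last. The ranges of the libraries did not overlap between the first and the second class nor between the second and the third, while those from oligodendrocyte precursors to endothelial cells each overlapped with the next. In SOD1G93A microglia came first at 78095 CPM, border-associated macrophages were at 55835 ± 13916 CPM and astrocytes at 35078 ± 12720 CPM (n = 3), and the ranges of these neighbours overlapped. Fibroblasts, too few to test with 19 to 28 cells a group, held 6952 to 8160 CPM of Apoe over their pooled cells in each group.

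The other genes had a narrower range of classes. Among the 9 tested classes Lpl was highest in microglia in every group, and apart from SOD1G93A/Clec7a-KO its library range in microglia did not overlap with that of the next class. The few fibroblasts, not among these classes, held 205.8 CPM of Lpl in nTg (18 UMIs from 19 cells) and 95.1 CPM in Clec7a-KO (10 UMIs from 24 cells), above the microglial means of 65.7 and 63.8 CPM. Apoc1 in nTg was highest in astrocytes (73.7 ± 13.6 CPM, n = 3) without overlap with the next class, border-associated macrophages (7.37 ± 3.68 CPM). In astrocytes it was at 70.6 ± 15.4 CPM in Clec7a-KO (n = 4), 56.2 ± 28.9 in SOD1G93A (n = 3) and 62.6 ± 27.8 in SOD1G93A/Clec7a-KO (n = 4). Less the level in T and NK cells of the same library, the astrocyte means were 70.3 CPM in nTg, 67.0 in Clec7a-KO, 50.6 in SOD1G93A and 28.8 in SOD1G93A/Clec7a-KO. Apoc4 was nearly unread in the astrocytes of mice without the transgene: the 2225 Clec7a-KO astrocytes gave 0 UMIs of 11522631, which allows up to 0.260 CPM, and the 1858 nTg astrocytes gave 1 UMI.

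**Figure D4:**
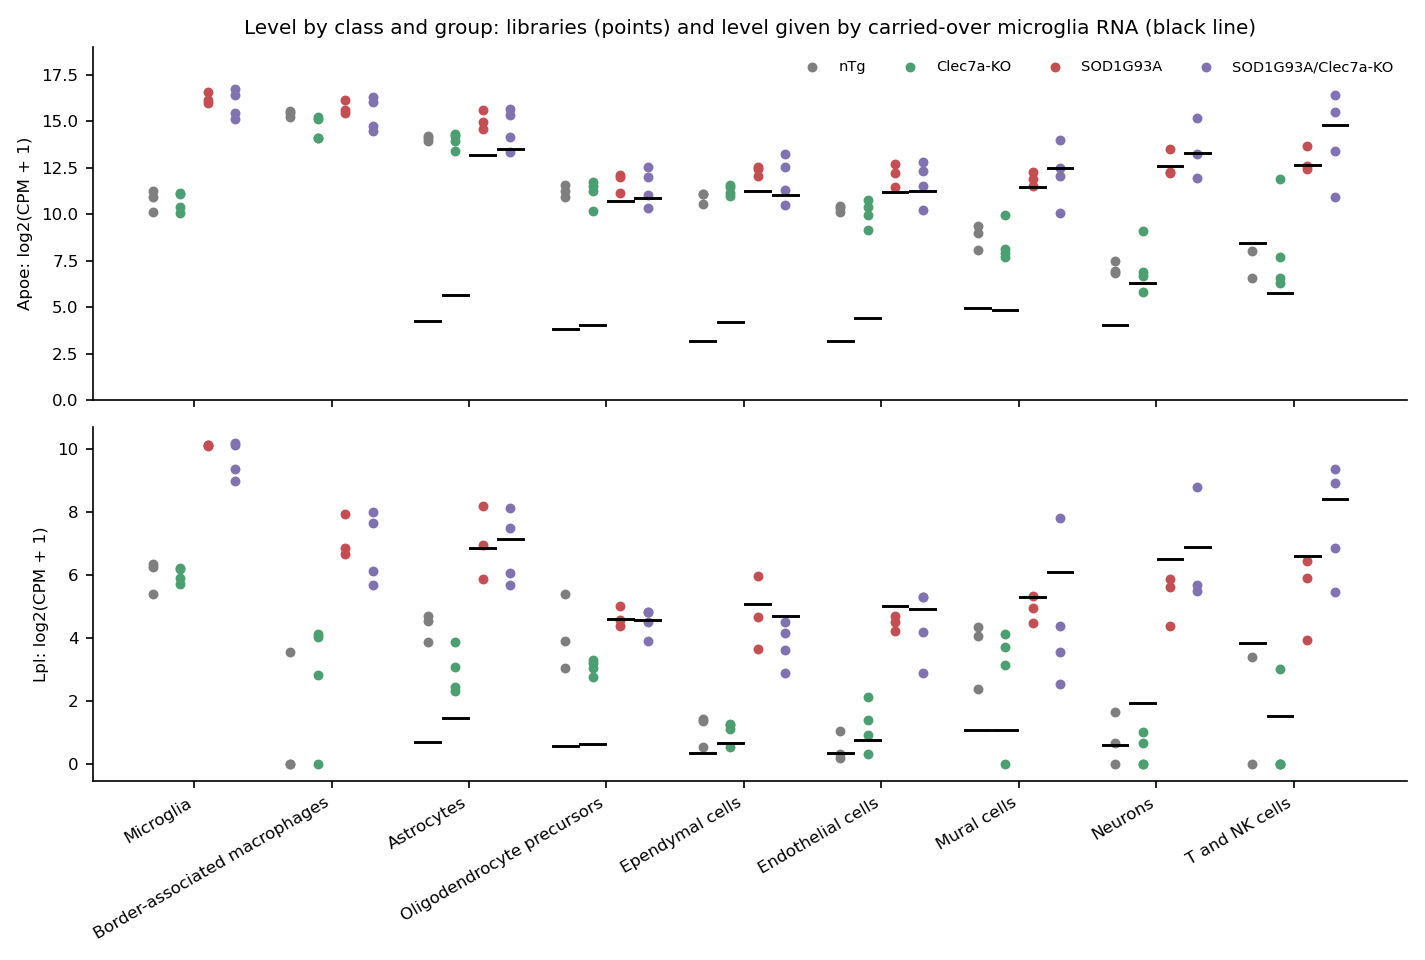
Level of Apoe (top) and Lpl (bottom) in each class and group as log2(CPM + 1), with a point for each library; the black line is the group mean of the level that the class would show if it held only as much microglial RNA as 10 microglia genes read in it. The points of Apoe in astrocytes lie above this line in 13 of 14 libraries, while those of Lpl in the transgenic groups lie around it. The line is a group mean, and the share behind it differs by library, from 3.78% to 22.7% in the astrocytes of SOD1G93A.

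The share of the Apoe UMIs of a library that came from microglia was 22.03% ± 5.5 in nTg (SD, n = 3) and 28.5% ± 5.6 in Clec7a-KO (n = 4), where astrocytes gave 39.8% ± 11.2 and 33.6% ± 11.4. With the transgene microglia gave 97.3% ± 0.12 in SOD1G93A (n = 3) and 97.3% ± 0.93 in SOD1G93A/Clec7a-KO (n = 4), and astrocytes 0.893% and 0.731%. Apoc1 moved in the same way, from 17.5% and 20.3% in the microglia of nTg and Clec7a-KO to 97.4% and 97.7% in those of SOD1G93A and SOD1G93A/Clec7a-KO. Lpl was mostly microglial everywhere, at 86.0%, 93.7%, 99.1% and 98.7% in the order nTg, Clec7a-KO, SOD1G93A and SOD1G93A/Clec7a-KO. In that order microglia were 31.9%, 41.1%, 67.7% and 73.0% of the kept cells, a share that dissociation and loading can set.

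**Figure D5:**
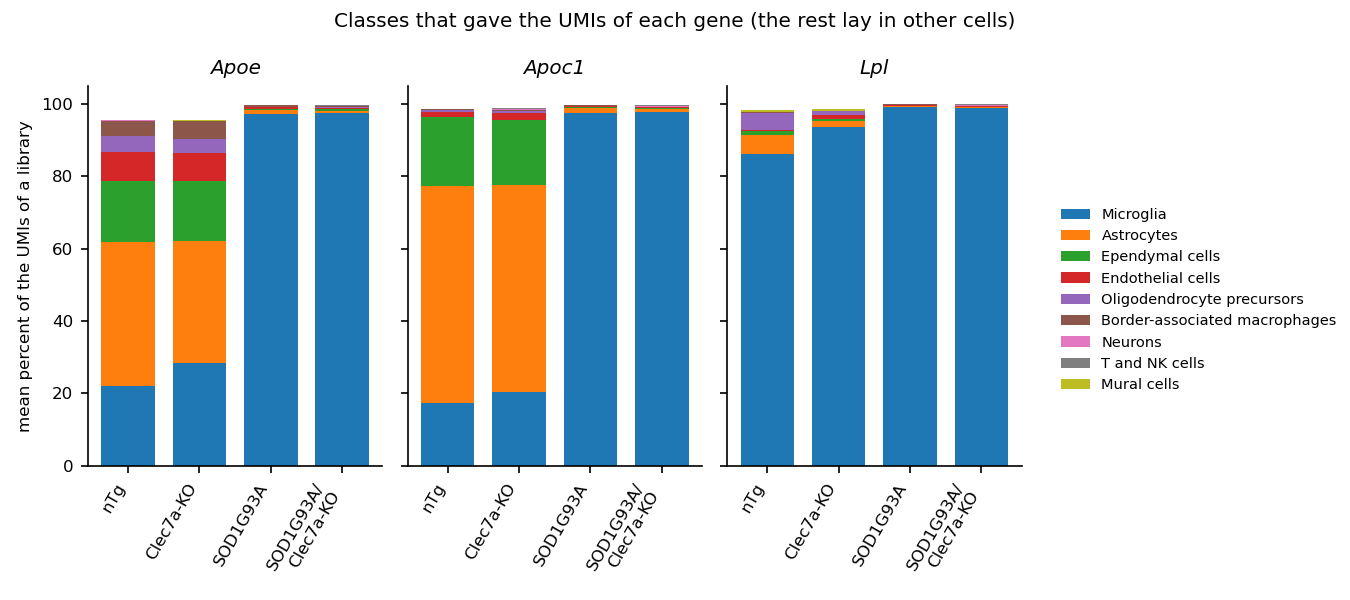
Mean percent of a library's UMIs of Apoe, Apoc1 and Lpl that came from each class, by group. The microglial part of the Apoe bar is 22.03% in nTg and 97.3% in SOD1G93A, and that of Lpl is at least 86.0% in each group.

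RNA of microglia was also read in the other classes. In a class, 10 genes of microglia that most of these classes should lack (among them C1qa, Csf1r and Cx3cr1) were read at a median share of their microglial level of 0.653% to 1.30% in the astrocytes of nTg, 0.878% to 7.27% in Clec7a-KO, 3.78% to 22.7% in SOD1G93A and 5.43% to 21.8% in SOD1G93A/Clec7a-KO. In neurons these shares were 0.447% to 1.37%, 3.54% to 5.55%, 6.53% to 11.1% and 5.80% to 19.6% in the same order. The groups were not so ordered in every class: in T and NK cells the share was 8.83% and 30.6% in the 2 nTg libraries against 5.20% to 12.03% in SOD1G93A, and 0.730% to 7.82% in Clec7a-KO against 2.43% to 63.7% in SOD1G93A/Clec7a-KO, and in mural cells it was 0.246% to 3.73% in nTg against 2.08% to 4.27%. Border-associated macrophages express most of these genes themselves, so the measure cannot be used there. T and NK cells express some of them, such as Laptm5, Tyrobp and Fcer1g: the highest of the 10, Laptm5 in 12 of 13 libraries, stood at 44.6% to 87.0% of its microglial level, so the values for these cells are not a measure of microglial RNA alone. The level such RNA would give is set beside the results that follow.

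In the 8 other classes 21 pairs of gene and class were tested: Apoe and Lpl in 8 classes each, Apoc1 in 4 and Apoc4 in 1. In SOD1G93A against nTg 8 pairs were called higher and 0 lower, where 3.38% of all gene and class pairs were called higher. In SOD1G93A/Clec7a-KO against Clec7a-KO 11 pairs were called higher and 0 lower, beside 3.88% of all pairs. Without the 4 libraries with Xist above Ddx3y the first count was 1, but this leaves 1 nTg library, assumed to vary like the other groups, so calls lost in that setting are no measure of a weaker difference. The first count fell without nTg replicate 1, 2 or 3 to 3, 4 and 3. Loss of Clec7a gave 0 calls by edgeR both with the transgene (0.0147% of all pairs called) and without it (0.0331% of all pairs). At an unadjusted p under 0.05 there were 3 and 1 of the 21. These counts cannot be set against those shares, which are at an adjusted p, and the share of all pairs at an unadjusted p is not given here.

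Astrocytes gave the largest mean share of Apoe UMIs in both groups without the transgene. In Clec7a-KO their library range (23.1% to 45.2%) overlapped that of microglia (21.5% to 35.1%). Apoe in astrocytes was at 49211, 31475 and 24549 CPM in SOD1G93A and at 40989, 51185, 18175 and 10594 CPM in SOD1G93A/Clec7a-KO. It was at 18784, 17362 and 15680 CPM in nTg and at 19315, 20842, 15746 and 11055 CPM in Clec7a-KO. The 3 SOD1G93A libraries lay above all nTg libraries, while those of both Clec7a-KO groups overlapped. The log2 fold change was 1.02 (SE 0.44, adjusted p = 0.086) in SOD1G93A against nTg and 0.85 (SE 0.38, adjusted p = 0.097) in SOD1G93A/Clec7a-KO against Clec7a-KO, neither called, in a class where 17.2% and 17% of genes were called higher. Microglial RNA at the shares above would give 9298 CPM of the 35078 CPM in SOD1G93A (3013 of 28012 CPM without replicate 1), 11878 of 30235 CPM in SOD1G93A/Clec7a-KO (7899 of 23252 CPM without replicate 2) and 18.1 CPM of the 17276 CPM in nTg. The SOD1G93A/Clec7a-KO mean less the level in T and NK cells was -6369 CPM, a negative level, so the subtraction cannot be used there. Apoc1 in astrocytes had a log2 fold change of -0.36 (adjusted p = 0.48) and -0.22 (adjusted p = 0.66) in the same comparisons.

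Lpl in astrocytes was called higher in both. It was at 291, 57.4 and 124.1 CPM in SOD1G93A and at 22.4, 25.03 and 13.7 CPM in nTg (2.95 on the log2 scale, SE 0.57, adjusted p = 0.0012). In SOD1G93A/Clec7a-KO it was at 179.8, 277, 51.0 and 66.1 CPM and in Clec7a-KO at 13.7, 4.00, 7.44 and 4.49 CPM (4.19, SE 0.57, adjusted p = 6.8e-05). The groups did not overlap, and microglial RNA would give 115.5 of the mean of 157.4 CPM in SOD1G93A and 141.0 of 143.5 CPM in SOD1G93A/Clec7a-KO. Without replicate 1 the SOD1G93A values were 48.6 of 90.7 CPM, and the call in SOD1G93A against nTg was lost without the Xist libraries (adjusted p = 0.11). Apoc4 in astrocytes was called higher in SOD1G93A against nTg, from 12 UMIs against 1 (4.25 on the log2 scale, adjusted p = 0.041). It was also called higher in SOD1G93A/Clec7a-KO against Clec7a-KO (57 UMIs against 0). Over pooled cells SOD1G93A/Clec7a-KO was at 13.7 CPM, 52.7-fold a floor of 3 UMIs over the Clec7a-KO cells. That fold leaves out the spread between libraries, the lowest of which was at 0 CPM. Microglial RNA would give 3.06 of the library mean of 3.18 CPM in SOD1G93A and 9.55 of 8.01 CPM in SOD1G93A/Clec7a-KO. The first of these calls was lost in 9 of 25 settings, among them leaving out SOD1G93A replicate 1 or any nTg replicate. Without replicate 1 of each group microglial RNA would give 1.64 CPM against a mean of 0.593 CPM in SOD1G93A and 6.08 against 4.22 CPM in SOD1G93A/Clec7a-KO.

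Lpl in endothelial cells, on whose surface lipoprotein lipase acts in other tissues, was at 22.1, 24.8 and 17.9 CPM in SOD1G93A and at 38.9, 38.8, 17.2 and 6.44 CPM in SOD1G93A/Clec7a-KO. It was at 1.10, 0.261 and 0.155 CPM in nTg and at 1.68, 0.246, 3.38 and 0.919 CPM in Clec7a-KO, with no overlap between groups with and without the transgene. The log2 fold changes were 5.18 (adjusted p = 0.0027) and 4.12 (adjusted p = 0.0028), in a class where 1.04% and 0.82% of genes were called higher. Microglial RNA would give 31.7 CPM in SOD1G93A and 29.3 CPM in SOD1G93A/Clec7a-KO, more than the means of 21.6 and 25.3 CPM. Apoc1 in endothelial cells was called in SOD1G93A against nTg (2.49, adjusted p = 0.039) and not in SOD1G93A/Clec7a-KO against Clec7a-KO (2.12, adjusted p = 0.056), and the difference between these was not called. Microglial RNA would give 2.36 of 2.86 CPM in SOD1G93A and 3.74 of 3.21 CPM in SOD1G93A/Clec7a-KO. The Apoc1 call was lost in 9 of 28 settings, among them leaving out SOD1G93A replicate 1 or 2 or any nTg replicate.

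In ependymal cells, which line the central canal, Lpl had log2 fold changes of 4.36 (adjusted p = 0.00032) in SOD1G93A against nTg and 3.75 (adjusted p = 0.0013) in SOD1G93A/Clec7a-KO against Clec7a-KO, beside 1.06% and 1.29% of genes called higher. Its mean was 32.4 CPM in SOD1G93A against 32.6 CPM from microglial RNA, and 14.2 CPM in SOD1G93A/Clec7a-KO against 25.02 CPM. Without replicate 1 the SOD1G93A mean was 18.02 CPM against 26.98 CPM, without replicate 2 that of SOD1G93A/Clec7a-KO was 11.6 against 15.8 CPM, and the first call was lost without the Xist libraries (adjusted p = 0.10). In border-associated macrophages Lpl was called higher in both (4.63, adjusted p = 0.015, and 3.74, adjusted p = 0.0083), beside 0.304% and 0.532% of genes. There it was at 100.0, 115.1 and 242 CPM in SOD1G93A and at 0 to 10.7 CPM in nTg, from 196 and 3 UMIs over the groups. Less the level in T and NK cells of the same library, its mean went from 152.3 to 99.3 CPM in SOD1G93A. In SOD1G93A/Clec7a-KO it went from 143.7 to -182.7 CPM, a negative level, so the subtraction cannot be used there. The first call was lost in 5 of 25 settings, which were leaving out SOD1G93A replicate 3, any nTg replicate or the Xist libraries (largest adjusted p = 0.64), and the second without libraries 13, 15 and 16 (adjusted p = 0.054).

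In neurons both Apoe and Lpl were called higher in both comparisons, beside 0.971% of genes in SOD1G93A against nTg and 0.486% in SOD1G93A/Clec7a-KO against Clec7a-KO. Apoe was at 4923, 11741 and 4781 CPM in SOD1G93A and at 123.3, 180.5 and 116.0 CPM in nTg, a difference of 5.69 on the log2 scale (adjusted p = 0.0074), and the second comparison gave 6.32 (adjusted p = 0.0039). Lpl had log2 fold changes of 5.07 (adjusted p = 0.041) and 7.85 (adjusted p = 0.0039). Microglial RNA would give 6265 of the mean of 7148 CPM of Apoe in SOD1G93A, and 10225 of 16768 CPM in SOD1G93A/Clec7a-KO, where the 3 libraries with enough neurons were at 9812, 36535 and 3957 CPM and without replicate 2 the values were 4613 of 6884 CPM. For Lpl it would give 89.7 CPM against a mean of 42.1 CPM in SOD1G93A, and 116.8 CPM against 180.3 CPM in SOD1G93A/Clec7a-KO, and without replicate 2 it would give 62.1 CPM against 47.5 CPM. In SOD1G93A against nTg the Lpl call was lost in 12 of 27 settings, among them leaving out SOD1G93A replicate 2 or 3, any nTg or any Clec7a-KO replicate. The Apoe call there was lost in 4, among them leaving out nTg replicate 1 or 3. Both calls of the second comparison were lost without the Xist libraries, where the log2 fold changes were 6.11 for Apoe and 7.51 for Lpl.

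In mural cells, oligodendrocyte precursors and T and NK cells, calls were made in SOD1G93A/Clec7a-KO against Clec7a-KO. In mural cells (0.636% of genes called higher) Apoe was at 5771, 16511, 4247 and 1092 CPM against 1007, 281, 245 and 210 CPM (log2 fold change 3.97, adjusted p = 0.0016), with 5700 CPM from microglial RNA beside the mean of 6905 CPM. Without SOD1G93A/Clec7a-KO replicate 2 these were 2938 and 3703 CPM, while the Clec7a-KO mean went from 436 to 246 CPM without its replicate 1. In SOD1G93A against nTg it differed there by 3.03 on the log2 scale (adjusted p = 0.14). In oligodendrocyte precursors (2.93%) Apoc1 was called (2.90, adjusted p = 0.026), at 5.80 ± 2.60 CPM against 0.917 ± 0.929 CPM (SD, n = 4 each), with 2.80 CPM from microglial RNA, and the Clec7a-KO mean was 0.487 CPM without replicate 3. This call was lost without Clec7a-KO replicate 1 or 2 or without the Xist libraries. In T and NK cells (4.13%) Apoe (5.06, adjusted p = 0.031) and Lpl (6.80, adjusted p = 0.010) were called, where the shares above would give 29123 CPM of Apoe beside a mean of 36604 CPM, and 339.6 CPM of Lpl beside a mean of 326 CPM. The Apoe call was lost in 6 of 27 settings, which were fitting only both groups and leaving out SOD1G93A/Clec7a-KO replicate 1 or 2 or Clec7a-KO replicate 2, 3 or 4, and the Lpl call without Clec7a-KO replicate 2 (adjusted p = 0.074). Without SOD1G93A/Clec7a-KO replicate 2 they would give 15580 CPM of Apoe beside a mean of 19770 CPM, and 207.7 CPM of Lpl beside 215 CPM. Apoe in these cells ran from 1920 to 87109 CPM over the SOD1G93A/Clec7a-KO libraries. The difference between SOD1G93A/Clec7a-KO against Clec7a-KO and SOD1G93A against nTg was called for none of 25 pairs of gene and class, microglia included.

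Genes that handle these lipoproteins were read in the microglia from lists of known function. The counts that follow stand beside 19.6% of all genes called higher and 13% called lower in SOD1G93A against nTg, and 25.6% and 20.9% in SOD1G93A/Clec7a-KO against Clec7a-KO. Of 14 lipoprotein receptor and receptor partner genes tested, 6 rose and 1 fell in SOD1G93A against nTg, and 6 rose and 2 fell in SOD1G93A/Clec7a-KO against Clec7a-KO, and the medians over the list were 0.57 and 0.56 on the log2 scale, beside 0.0089 and 0.0044 over all genes. Lrpap1, a chaperone of lipoprotein receptors, rose by 2.20 and 2.27. Trem2, a microglial receptor that binds lipids and apolipoproteins, rose from 1394 ± 124 to 3595 ± 646 CPM (1.37, adjusted p = 0.00040) and by 1.31 in the second comparison. Lrp1, a large receptor for Apoe, rose by 0.83 (adjusted p = 0.0079) and 0.59 (adjusted p = 0.016), and the HDL receptor gene Scarb1 by 1.06 and 1.10. Vldlr was under 0.3 CPM in each group and not tested.

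Of 7 tested partners and regulators of lipoprotein lipase, 3 rose and 0 fell in the first comparison and 5 rose and 2 fell in the second. Angptl4, a secreted inhibitor of the lipase, rose from 0.387 ± 0.202 to 3.18 ± 0.500 CPM (log2 fold change 2.92, adjusted p = 0.00027) and by 2.57 in the second. Sel1l, which serves the folding of the lipase in the endoplasmic reticulum, and Lmf2, a gene related to Lmf1, rose by 0.90 and 0.75 in the first comparison. Lmf2 and Lmf1 rose by 0.75 and 0.74 in the second. Gpihbp1, which anchors the lipase on capillaries, had no UMI in the microglia of any group.

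Lipid efflux and lipidation genes rose in 6 of 10 tested in each comparison, and none fell. Abcg1 and Abca1, transporters that load cholesterol onto Apoe particles, rose by 2.13 and 1.77 in SOD1G93A against nTg and by 1.73 and 1.16 in SOD1G93A/Clec7a-KO against Clec7a-KO. Npc2, a lysosomal cholesterol carrier, rose by 1.87 and 1.97. Of 12 nuclear receptors and sterol regulators, 3 and 6 rose and 1 and 1 fell, the first of these counts being near the 19.6% of all genes, with Rxra at 0.74 and 0.66 and Ppard at 0.41 and 0.51. Nr1h3, the LXR-alpha receptor gene known to drive Apoe and Abca1, had a log2 fold change of 0.86 (adjusted p = 0.077) in the first and rose by 1.07 (adjusted p = 0.012) in the second, from 0.738 to 1.57 CPM.

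Lipid droplet and fatty acid genes rose in 10 of 17 tested and fell in 2 in each comparison, and the list medians were 1.28 and 1.39 on the log2 scale. Ch25h, a cholesterol hydroxylase, rose by 5.31 and 5.14, and the fatty acid carriers Fabp5 and Fabp3 rose by 5.17 and 5.10 in the first comparison and by 5.47 and 5.21 in the second. Plin2, the coat protein of lipid droplets, rose by 3.04 and 2.94 and Lipa, the acid lipase of lysosomes, by 1.89 and 1.80. Lipe, the hormone-sensitive lipase gene, fell by 0.78 and 0.66, and Acsl1 fell by 0.40 and 0.54. Of the other apolipoprotein genes 7 were tested, of which 1 rose in the first comparison and 2 rose and 1 fell in the second.

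Of the neighbours of the apolipoprotein cluster on chromosome 7, 4 of 14 tested rose in the first comparison and 5 in the second, none fell, and the median log2 fold changes were 0.035 and 0.17, counts near the shares of 19.6% and 25.6% of all genes. Trappc6a rose by 1.48 and 1.43, Tomm40, which lies next to Apoe, by 0.61 and 0.78, and Gemin7 by 0.64 in the first. Of 24 genes of the disease-associated microglia signature all 24 rose in both comparisons, with medians of 2.19 and 2.20. The 24 include Clec7a, which both groups of the second comparison lack. Over all barcodes its residual level was 1.61 to 2.57 CPM in SOD1G93A/Clec7a-KO and 0.654 to 1.48 CPM in Clec7a-KO. Of the 22 dissociation genes 0 rose and 10 and 15 fell, beside 13% and 20.9% of all genes, and Klf2 fell by 2.34 and 2.43. In the comparisons of Clec7a loss no gene of these lists was called other than Clec7a itself.

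The genes with a pattern most like each member were found by Pearson's r of log2(CPM + 5). Over the 14 microglia sums, which fall into a high and a low set so that r mostly restates that split, Apoe was nearest to Alcam (r = 0.995), Apbb2 and Myo5a, and Lpl to Apbb2 (0.996), Dnajb14 and Sh3pxd2b. Apoc1 was nearest to Apoc4 (0.990), followed by Ank, and Apoc4 to Apoc1, 1700003F12Rik and Gm1673. Over the means of the 9 classes Apoe was nearest to Pnpla7 (0.980), Plekho2 and Hpgd, Apoc1 to Pfkfb3 (0.951), Slc7a11 and Fbrsl1, and Lpl to Ctsd (0.987), Olfml3 and Il1a. All sums of a library share its depth and its cells.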

How the data were processed

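The members and the gene lists were chosen with earlier results of these data known. The deposited matrices hold raw UMI counts per gene and cell barcode, made with software of version 3.0.2 per the file headers; the submitters' processing notes name Cell Ranger, Seurat, DESeq2 and mm10 without roles or versions. Barcodes under 500 genes or 1000 UMIs, over 15% mitochondrial UMIs or among the highest Scrublet doublet scores (0.8% per 1000 barcodes) were removed (7127 for depth, 4963 for mitochondrial share, 6784 doublets). Cells were clustered with scanpy 1.11.5 (2000 variable genes, 30 principal components, 15 neighbours, Leiden resolution 1) and classes named from fixed markers, so class names are rebuilt and not the authors'; 5338 cells stayed unnamed. UMIs were summed per library and class (at least 10 cells) and tested with edgeR 4.0.16, quasi-likelihood, TMM, filterByExpr, all groups in 1 fit, two-sided, Benjamini-Hochberg over all genes of a class, called at an adjusted p under 0.05. The fits were tested on simulated data. Named genes were the members, label checks, a fixed set of lipid genes, up to 3 higher and 3 lower called genes per list and comparison with at least 20 CPM in a group, and the genes most like a member; some of these are not reported here. Intervals and floors cover counting error only. The SE of a log2 fold change is its absolute value divided by the square root of the F value of the edgeR test. In all, 28 settings were tried, 2 of them chosen after seeing the data. Sequences were read from RefSeq tables.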

Additional observations from a re-analysis of the deposited data

Results flagged for a closer look

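In 49 groups of 4 libraries the highest and the lowest level of each gene and class were compared with the rest, and 4 groups had a library farther from the others than Dixon's 95% limit allows; chance alone gives about 1 in 20 such groups. Apoe in the mural cells of Clec7a-KO replicate 1 was at 1007 CPM, against 210 to 281 CPM in the other 3 libraries of its group. In the neurons of the same library Apoe was at 546 CPM, against 55.1 to 117.7 CPM. Its 42 T and NK cells held 3873 CPM of Apoe, against 78.7 to 205.6 CPM. In the microglia of this library Apoe was at 2168 CPM, within the range of its group. The fourth was Lpl in the mural cells of SOD1G93A/Clec7a-KO replicate 2, at 221 CPM from 23 UMIs in 48 cells, against 4.90 to 19.8 CPM in the others.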

How the results depend on the processing

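The 4 genes called in microglia in both comparisons of the transgene stayed called under all 28 settings, and no other member was called there except Apoc2, which was called in SOD1G93A/Clec7a-KO against Clec7a-KO in 8 settings in which it passed the filter on low counts or no filter was used. With no TMM factor the median of all genes moved from 0.0089 to -0.45 (SOD1G93A against nTg) and from 0.0044 to -0.52 (SOD1G93A/Clec7a-KO against Clec7a-KO), and the higher share of called genes fell from 60.1% to 20.4% and from 55.1% to 19.3%.

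Counts in the other classes moved more. For SOD1G93A against nTg (8 pairs) they were 15 with no filter on low counts, 22 with doublets kept, 4 with an Xist covariate, 1 without the Xist libraries and 3 to 9 when each replicate was left out, with 3, 4 and 3 without nTg replicates 1, 2 and 3. For SOD1G93A/Clec7a-KO against Clec7a-KO (11) they were 24 with no filter, 24 with doublets kept and 7 with only both groups fitted. For SOD1G93A/Clec7a-KO against SOD1G93A (0) they were 6 with no filter, 1 with the replicate block, 1 with the Xist covariate, 1 with the library number as a covariate, 1 with the members left out of the variable genes, 2 without the Xist libraries, 1 without libraries 13, 15 and 16 and 0 to 1 when each replicate was left out, the 1 being without SOD1G93A/Clec7a-KO replicate 4. For Clec7a-KO against nTg (0) no filter gave 3. Lpl in endothelial cells stayed called under all 28 settings in both comparisons. In SOD1G93A/Clec7a-KO against Clec7a-KO so did Apoe in mural cells and Lpl in astrocytes and in ependymal cells. Apoc4 in astrocytes stayed called there in 25 of 25. Apoc4 in astrocytes (16 of 25 settings), Apoc1 in endothelial cells (19 of 28) and Lpl in neurons (15 of 27) in SOD1G93A against nTg were the least stable; Apoe in astrocytes became called in 6 settings of the first comparison and 4 of the second. The cause was not tested.

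Small folds of microglia that were never called changed sign. For SOD1G93A/Clec7a-KO against SOD1G93A, Apoe was at 0.12 with the library number, 0.038 without the Xist libraries, 0.33 without libraries 13, 15 and 16 and -0.51 to 0.028 leaving out each replicate, and Lpl at 0.040 without 13, 15 and 16. For Clec7a-KO against nTg, Apoe was at 0.030 with the replicate block, 0.70 without the Xist libraries, 0.060 without 13, 15 and 16 and -0.36 to 0.14 by replicate; Apoc1 at 1.00 without the Xist libraries; Apoc4 at -0.038 with no factor, -0.023 with DESeq2, -0.032 with only both groups, -0.18 without 13, 15 and 16 and -0.50 to 0.96 by replicate; and Lpl at 0.045 with the block, 0.73 without the Xist libraries and -0.29 to 0.14 by replicate. For the difference between both effects of Clec7a loss, Apoe was at 0.077 with the Xist covariate, 0.36 with the library number, 0.27 without 13, 15 and 16 and -0.39 to 0.18 by replicate; Apoc1 at -0.46 and Apoc4 at -2.06 without the Xist libraries, Apoc4 at -0.031 to 1.43 by replicate; and Lpl at 0.14 without 13, 15 and 16. Apoc1 in astrocytes was at 0.090 and 0.83 with doublets kept, and at -0.68 to 0.0034 and -0.58 to 0.080 by replicate.

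Replicate numbers were not taken to pair the libraries, since not every pair correlated above 0.1: over 19 same-numbered pairs the correlation of deviations ran from -0.17 to 0.38 (median 0.087, against -0.034 for other pairs), 9 were over 0.1, among them 3 of the 4 pairs of SOD1G93A/Clec7a-KO with Clec7a-KO (0.25 to 0.38), and 7 libraries correlated best with their own number. Subtracting the level in T and NK cells moved 12 of 36 levels by more than their spread, 9 of them in SOD1G93A/Clec7a-KO. There Apoe went from 69057 to 32453 CPM in microglia, from 30235 to -6369 CPM in astrocytes and to 13112 CPM in border-associated macrophages, and Lpl from 857 to 530.2 CPM in microglia and to -182.9 and -182.7 CPM in the other 2 classes. In the same group Apoc1 went from 118.9 to 85.1 CPM in microglia, from 62.6 to 28.8 CPM in astrocytes and from 13.4 to -20.4 CPM in border-associated macrophages. Apoe in Clec7a-KO microglia went from 1703 to 640 CPM and Apoc1 there from 2.97 to -0.643 CPM. Without Clec7a-KO replicate 1 the T and NK means behind these were 127 CPM of Apoe and 0 CPM of Apoc1, against 1063 and 3.61 CPM with it. Lpl in SOD1G93A microglia went from 1102 to 1049 CPM. The T and NK level is not a background common to all classes, so the subtracted values, some of them negative, are no estimate of a level. Thinning to 1000 UMIs or not at all moved 27 of 32 shares of cells. No border-associated macrophage class formed at resolution 0.5, without the members among the variable genes or with doublets kept.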
